A study of Mus musculus with 24 samples.

Results

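This account follows 49 mouse genes that encode the machinery of DNA replication, from the proteins that mark and load replication origins to the enzymes that supply deoxynucleotides, in CD4 T cells with and without Trim28. The genes were chosen by name: every probe on the array whose gene name is one of the 49 was taken, with Cdc45 accepted under the older name Cdc45l. By that rule 41 genes were found, and 7 more (Orc1 to Orc6 and Rfc1) were listed under older names and were matched through their RefSeq accessions. No probe was found for Gins2. The 48 genes found have 75 probes, of which 70 passed a filter on dim probes, and all 48 were among the 16643 genes tested.

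Total RNA was measured on 24 one-colour Agilent arrays, 4 in each of 6 groups, all from female C57BL/6 mice aged 6 or 7 weeks. WT mice were compared with Trim28 conditional knockout mice (CKO), and the labels do not name the promoter that drives the deletion. In each genotype naive cells were sorted as CD4+CD62+CD25- and were either left resting (unstimulated) or stimulated for 13 h through plate-bound antibodies to CD3 and CD28. Treg, the regulatory T cells, were sorted as CD4+CD62+CD25+. The CKO Treg samples carry the treatment label "TCR-stimulated" and the WT Treg samples the label "unstimulated", while the design text describes stimulation for naive cells only. The labels do not say that the 4 samples of a group came from separate animals; the tests therefore cover only how much these samples varied, which may be technical.

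A chromosome is copied once per cell cycle in a fixed order of steps. The origin recognition complex, with Cdc6 and Cdt1, loads the MCM helicase onto DNA before S phase. The Cdc7-Dbf4 kinase, Mcm10, Cdc45 and the GINS complex then turn the loaded helicase on, and polymerases, a sliding clamp with its loader, single-strand binding proteins and a ligase copy and join the strands. Ribonucleotide reductase, thymidylate synthase, thymidine kinase and dUTPase set the deoxynucleotide pool. A resting naive T cell is outside the cell cycle, and many of these genes are known targets of the E2F transcription factors, which become active as a stimulated cell approaches S phase.

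The promoters of these genes are shown because the members moved together on stimulation, as described further on. In RefSeq (build GRCm38.p6), 40 of the members had a promoter window of 250 bases before to 50 bases after a start site. An E2F core, searched on both strands as TTCCCGC, as TTCGCGC, as TTGCCGC or as TTGGCGC, was present in 25 of the 40 (62.5%). It was present in 18.6% of the 7668 other tested genes with a window and in 9.60% of all 32851 windows. Matches on the 2 strands can overlap and are then counted as separate cores. The CCAAT box (CCAAT) was in 60.0% of the members with a window, 42.4% of other tested genes with a window and 37.4% of all windows. The CHR element (TTTGAA) was in 17.5%, 14.3% and 17.9%, in the same order. A gene was counted once if any of its windows held a match. For each motif the first 2 shares are therefore of genes and the last is of single windows. The motif matches are letters in a window and not measured binding. The 180 bases that end at the start site are printed 5′ to 3′ for Mcm6 (chr1:128359706-128359885, minus strand), Prim1 (chr10:128015035-128015214, plus strand), Rrm1 (chr7:102441515-102441694, plus strand), Chaf1a (chr17:56040236-56040415, plus strand) and Pcna (chr2:132253181-132253360, minus strand). The first 3 stand for helicase loading, the polymerases and nucleotide supply, Chaf1a for chromatin assembly, and Pcna is a member without a core in its window. Capitals mark the E2F cores on either strand.
Mcm6: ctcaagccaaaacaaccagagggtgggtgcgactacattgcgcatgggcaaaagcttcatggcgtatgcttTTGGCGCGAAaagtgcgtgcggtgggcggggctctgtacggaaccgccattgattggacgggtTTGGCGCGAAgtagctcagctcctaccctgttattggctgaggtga
Prim1: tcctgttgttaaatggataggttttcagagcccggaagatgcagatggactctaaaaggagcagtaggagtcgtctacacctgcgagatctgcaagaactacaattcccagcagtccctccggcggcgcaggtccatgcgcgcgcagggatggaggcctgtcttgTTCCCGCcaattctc
Rrm1: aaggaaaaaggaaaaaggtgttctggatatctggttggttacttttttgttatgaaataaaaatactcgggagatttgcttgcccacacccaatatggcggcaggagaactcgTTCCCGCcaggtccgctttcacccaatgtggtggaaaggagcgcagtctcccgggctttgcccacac
Chaf1a: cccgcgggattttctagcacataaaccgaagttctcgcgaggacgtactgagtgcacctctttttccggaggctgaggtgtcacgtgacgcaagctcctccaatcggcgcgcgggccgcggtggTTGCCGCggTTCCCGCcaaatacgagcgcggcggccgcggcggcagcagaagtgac
Pcna: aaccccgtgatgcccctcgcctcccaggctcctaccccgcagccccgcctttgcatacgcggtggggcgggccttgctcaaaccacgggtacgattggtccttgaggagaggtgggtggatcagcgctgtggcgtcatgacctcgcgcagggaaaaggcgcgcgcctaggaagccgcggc
Counted from the start site, the Mcm6 stretch holds 4 cores as 2 overlapping pairs, at -109 and -106 and at -46 and -43, and 1 more core follows the start site. Prim1 holds 1 core, TTCCCGC, at -15, Rrm1 holds the same letters at -67, and Chaf1a holds 2 cores, at -56 and -47.

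Values below are log2 of the processed signal relative to each array's 75th percentile, so a value of 0 is the signal that 75% of probes do not exceed. They compare arrays for 1 gene and do not rank genes against each other. A gene is said to have risen or fallen where limma's test, adjusted by Benjamini-Hochberg over all 16643 genes, gave p under 0.05, and a difference is given as log2 ± SE with n = 4 arrays per group. On naive arrays the signal at the 75th percentile lay between 154 and 372. For WT Treg it was 53.9 to 200.2 and for CKO Treg 31.3 to 116, so Treg values rest on less signal.

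Trim28 itself was read at 2.31, 2.47, 2.57 and 2.46 on the WT resting arrays and 0.58, 0.89, 1.00 and 1.29 on the CKO resting arrays. In stimulated cells it was 3.40, 3.86, 3.76 and 3.60 in WT and 1.08, 1.05, 1.23 and 0.53 in CKO, and in Treg 2.24, 1.81, 1.90 and 2.05 against 0.26, 0.20, 0.60 and 0.67. Every CKO array lay below every WT array of its state, as the labels require, and whether its probe lies in the deleted part is not known. All 8 CD4 T cell markers, Cd4 and Cd3e among them, were well above background in every group, and Foxp3 was high in the Treg groups alone (3.09 to 3.52 in WT and 3.20 to 3.58 in CKO, with no naive array above -1.06). These are bulk RNA samples, in which fewer cells that express a gene and less RNA of it per cell cannot be told apart.

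Across the 6 groups the replication genes had 1 dominant pattern. The highest group mean was in WT stimulated cells for 45 of 48 members. The exceptions were Tk1, highest in CKO Treg, Rpa1, highest in CKO resting cells, and Dbf4, highest in WT resting cells. CKO stimulated cells lay between resting cells and WT stimulated cells for most members. The array median over the 48 members, each centred on its own mean over all arrays, was 1.44 to 1.74 on the WT stimulated arrays and 0.47 to 0.78 on the CKO stimulated arrays. On the resting arrays it was -0.39 to -0.17 in WT and -0.60 to -0.51 in CKO. Every CKO resting array thus lay below every WT resting array. On the Treg arrays it was -0.76 to -0.35 in WT and -0.91 to -0.33 in CKO.

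**Figure D1:**
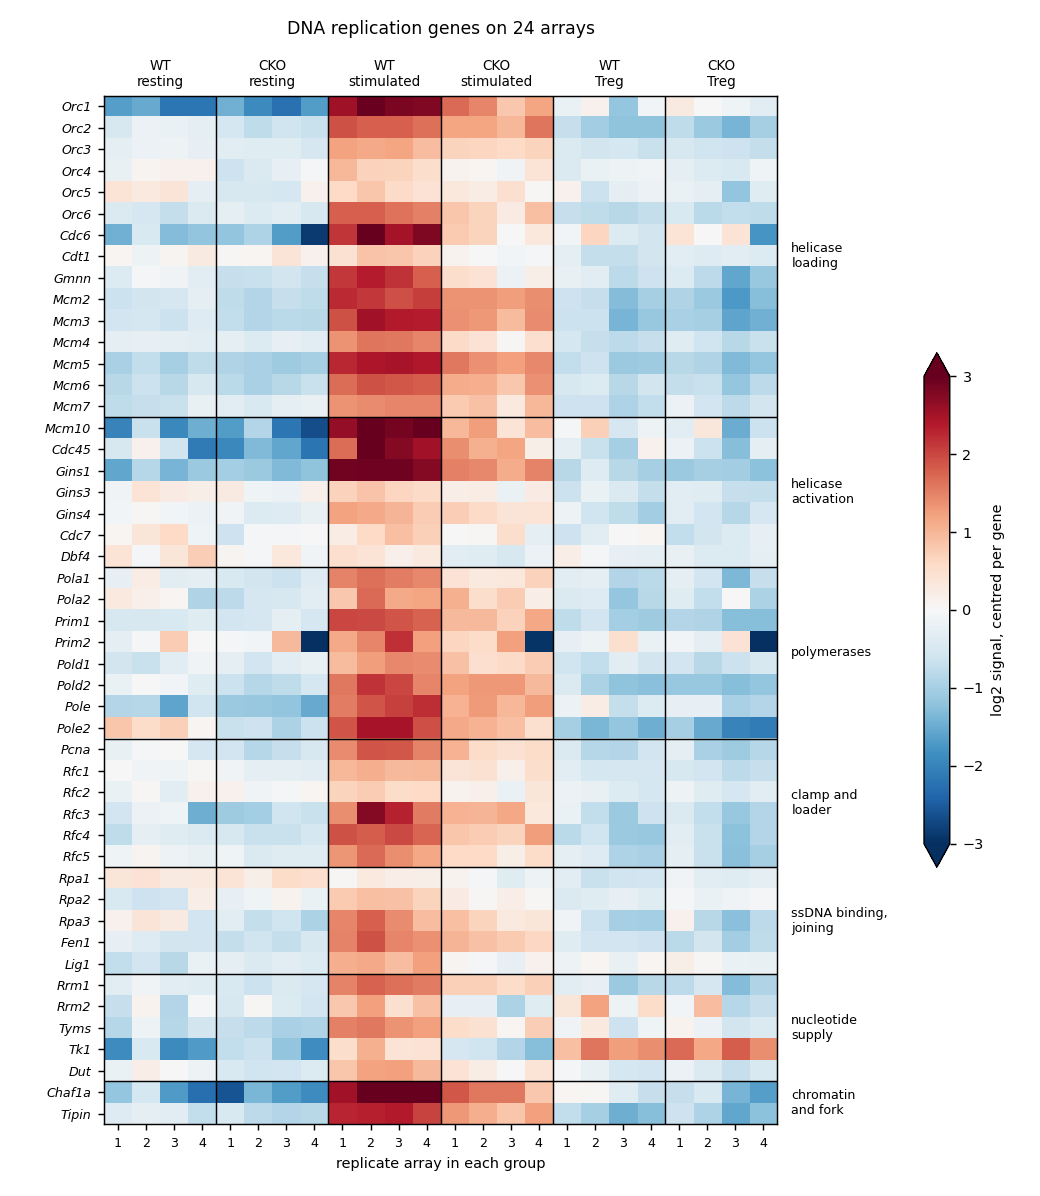
Heat map of the 48 measured DNA replication genes (rows, grouped by role) on 24 arrays (columns, 4 replicates in each of 6 groups); colour is the log2 signal relative to the array's 75th percentile minus the gene's mean over all 24 arrays, with the scale ending at -3 and 3. The WT stimulated arrays are the reddest block, the CKO stimulated arrays are paler, Tk1 is red in both Treg groups, and Prim2 is dark blue on replicate 4 of all 3 CKO groups.

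In WT naive cells stimulation raised 43 of 48 members and lowered none, where 31.6% of all genes rose and 30.3% fell. Orc1 and Cdc45, both counted among the 43, passed the filter on dim probes only through the stimulated groups. Their rise is therefore partly set by that filter. The median change of the members was 1.88, a 3.68-fold rise, and that of all genes was -0.03. The helicase loading group counts Gmnn, the inhibitor of Cdt1, beside the genes that load the helicase. In it Cdc6 rose by 3.75 ± 0.44, Mcm5 by 3.26 ± 0.13 and Gmnn by 2.34 ± 0.20. Orc1, the origin recognition subunit known to oscillate with the cell cycle, was not well above background on any resting array and was at least 15.0-fold higher after stimulation. For a bound of this kind, dim readings were first raised to the faintest signal that the same array called well above background, and the bright group's mean was then divided by theirs. Mcm10 (4.50 ± 0.39), Gins1 (4.10 ± 0.15) and Chaf1a (4.53 ± 0.36), the large subunit of chromatin assembly factor 1, also rose strongly. The 5 members that did not pass the test were Cdc7 (0.38 ± 0.21), Dbf4 (-0.03 ± 0.15), Orc5 (0.41 ± 0.22), Prim2 (1.39 ± 0.89) and Rpa1 (-0.16 ± 0.11).

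By role, the median rise in WT cells was 2.21 for helicase loading (14 of 15 rose), 1.69 for the polymerases (7 of 8) and 1.90 for nucleotide supply (5 of 5). Helicase activation had a median of 1.11 (5 of 7), the clamp and its loader 1.68 (6 of 6) and single-strand binding and fragment joining 1.34 (4 of 5). The helicase activation genes were the most uneven: Mcm10 rose by 4.50, Gins1 by 4.10, Gins4 by 1.11 ± 0.16 and Gins3 by 0.51 ± 0.15. With the probe used, neither subunit of the Cdc7-Dbf4 kinase passed the test. The other probes that passed the filter changed by -1.84 for Dbf4 and by 0.71 and 0.81 for Cdc7, without a test. Cdc45 also rose, from a resting level that was well above background on 2 of 4 arrays. Within the MCM hexamer all 6 subunits rose, from 1.79 ± 0.12 for Mcm4 to 3.26 ± 0.13 for Mcm5. Among the origin recognition subunits Orc2 (2.06), Orc6 (2.21), Orc3 (1.33) and Orc4 (0.69) rose beside Orc1. The other kept probes of Orc3 did not share 1 direction, with changes of 1.02, -0.44, -0.15 and 1.42. Those of Orc4 changed by 0.75, 0.25 and 0.72, and none of these other probes was tested.

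The comparison of CKO with WT after stimulation asks how levels in stimulated cells differ without Trim28. It includes any difference already present at rest. In stimulated cells 43 of 48 members were lower in CKO and none was higher, where 12.3% of all genes were lower and 11.7% higher. The median difference of the members was -0.93 (a 1.90-fold deficit), against -0.05 for all genes, and all 48 point estimates were below 0. For 43 members every CKO array lay below every WT array, where 15.3% of all genes did. The 5 members that did not pass the test were Cdc7 (-0.53 ± 0.21, adjusted p = 0.0668), Orc5 (-0.35 ± 0.22, 0.246), Pola2 (-0.56 ± 0.27, 0.126), Prim2 (-1.63 ± 0.89, 0.186) and Rpa1 (-0.29 ± 0.11, 0.0703).

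Each WT and CKO pair of 1 replicate number shared a slide. The median member difference within the 4 slides was -0.63, -1.06, -1.15 and -0.73, with 46, 48, 48 and 48 of 48 members lower in CKO. Among the members that passed the test, 18 exceeded a 2-fold deficit, including Cdc6, Mcm10, Gmnn, Cdc45, Chaf1a, Orc1, Gins1, Tk1 and Rrm2. Under quantile normalization, as under the authors' normalized values, 36 members passed the test, and with a 75th percentile taken over probes well above background on all arrays 41 did. The split of all called genes moved more: 1940 higher and 2050 lower became 1457 and 930 after quantile normalization and 2804 and 1216 with the other percentile, which moved the median of all genes to 0.11 and that of the members to -0.77. Of the 43 members, 28 passed the test under each of the 11 other settings and with each of the 8 compared arrays left out in turn.

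**Figure D2:**
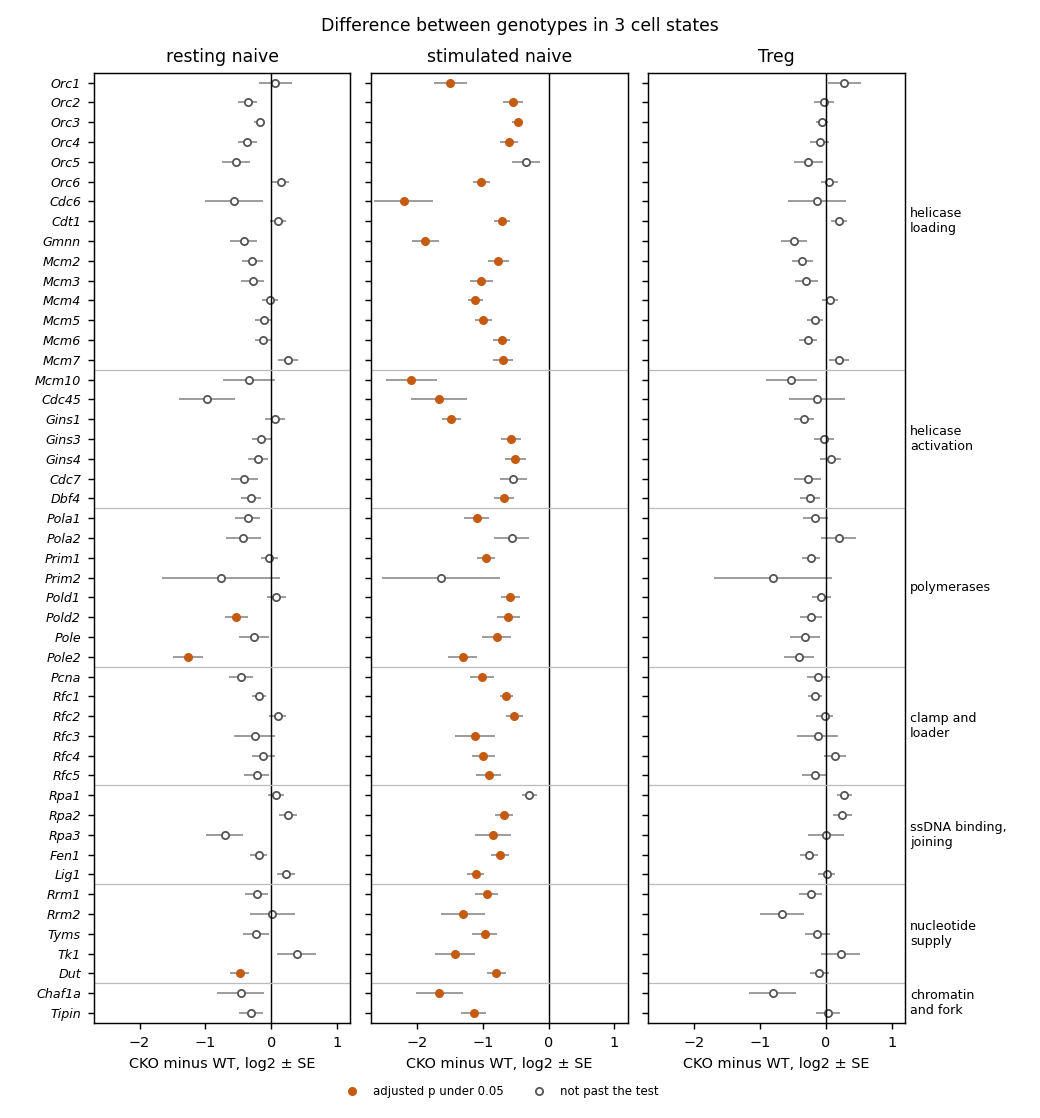
Difference between CKO and WT (log2 ± SE, n = 4 arrays per group) for 48 members grouped by role, in resting naive cells, stimulated naive cells and Treg; filled points have an adjusted p under 0.05. All points lie left of 0 in stimulated cells, where 43 are filled, against 3 filled points in resting cells and none in Treg.

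In the helicase loading group 14 of 15 members fell in CKO stimulated cells, with a median of -0.76. Mcm4, a subunit of the helicase, was 5.75, 6.02, 6.00 and 5.88 on the 4 WT stimulated arrays and 4.98, 4.86, 4.45 and 4.92 on the CKO arrays. The groups did not overlap, and the difference was -1.11 ± 0.12 (adjusted p = 1.74e-06). Gmnn read 4.02, 4.24, 4.06 and 3.68 in WT and 2.42, 2.32, 1.71 and 2.06 in CKO. Each CKO array was below each WT array, a difference of -1.87 ± 0.20 (adjusted p = 2.17e-06). The differences of the 6 MCM subunits ran from -0.69 for Mcm7 to -1.11 for Mcm4.

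The origin recognition subunits spread more widely. Orc1 (-1.49 ± 0.25) and Orc6 (-1.02 ± 0.13) had the largest deficits, and Orc2 (-0.54), Orc3 (-0.47) and Orc4 (-0.60) also fell. Orc5 was -0.86, -0.64, -0.88 and -1.03 on WT stimulated arrays and -1.15, -1.23, -0.98 and -1.43 on CKO stimulated arrays, and these groups overlapped. Cdt1, which loads the helicase together with Cdc6, read 4.34, 4.74, 4.72 and 4.58 in WT and 4.00, 3.89, 3.81 and 3.87 in CKO (-0.70 ± 0.12, adjusted p = 0.000446). The CKO stimulated values of Cdt1 overlapped those of CKO resting cells (3.92 to 4.29).

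Among the helicase activation genes 6 of 7 fell, with a median of -0.67. Gins1, a GINS subunit, was 2.29, 2.31, 2.31 and 2.14 in WT and 0.91, 0.83, 0.51 and 0.89 in CKO (-1.48 ± 0.15, adjusted p = 8.7e-07). Mcm10 was 1.71, 2.40, 1.94 and 2.20 in WT and 0.08, 0.33, -0.51 and 0.01 in CKO, and the groups of both genes were apart. The other measured GINS subunits, Gins3 (-0.57 ± 0.15) and Gins4 (-0.51 ± 0.16), fell as well. The Gins3 call was lost with normexp correction, and the Gins4 call was lost in 8 of 19 alternatives, 4 of them with 1 array left out. Cdc7 had the weakest evidence of its group: -0.20, 0.18, 0.48 and 0.29 in WT overlapped -0.42, -0.38, 0.11 and -0.69 in CKO. Its partner Dbf4 fell by 0.67 ± 0.15 (adjusted p = 0.0033).

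Of the polymerase genes 6 of 8 fell, with a median of -0.87. Prim1, the catalytic subunit of primase, read 3.97, 3.94, 3.85 and 3.74 in WT and 2.94, 2.95, 2.67 and 3.14 in CKO. The groups were apart and differed by -0.95 ± 0.13 (adjusted p = 4.05e-05). Pole2, the second subunit of the leading-strand polymerase epsilon, read 0.98, 1.58, 1.58 and 1.05 against 0.25, 0.14, 0.00 and -0.42, again without overlap (-1.31 ± 0.23, adjusted p = 0.000431). Pola1, the catalytic subunit of polymerase alpha, fell by 1.09 ± 0.19. Pold1 (-0.58 ± 0.14) and Pold2 (-0.61 ± 0.17) of the lagging-strand polymerase delta fell too.

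Prim2, the other primase subunit, did not pass the test and depended on 1 array. It read 0.61, 0.92, 1.66 and 0.70 in WT stimulated cells and 0.11, 0.02, 0.70 and -3.47 in CKO stimulated cells, so CKO replicate 4 alone was far below the rest. The same replicate number was also the low one in CKO resting cells (-0.59, -0.61, 0.42 and -3.98) and in CKO Treg (-0.61, -0.81, -0.11 and -3.95). No WT array was below -0.81. Without CKO stimulated replicate 4 the difference was -0.70 in place of -1.63. A second, dimmer Prim2 probe read -3.74, -4.52 and -3.34 on those 3 arrays in resting, stimulated and Treg cells, and between -4.52 and -2.85 on the other CKO arrays. Whether samples of 1 replicate number share an animal is not stated in the labels. The age labels of CKO replicate 1 differ between states, at 6 weeks resting and 7 weeks stimulated and in Treg. Those of CKO replicate 4 are 7 weeks in all 3 states.

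All 6 genes of the clamp and its loader fell, with a median of -0.95. Pcna, the sliding clamp, fell by 1.01 ± 0.18. Rfc1, the large subunit of the loader, read 3.79, 3.90, 3.77 and 3.79 in WT and 3.18, 3.25, 2.94 and 3.32 in CKO (-0.64 ± 0.10, adjusted p = 0.000178). Rfc4 read 3.74, 3.66, 3.80 and 3.57 in WT and 2.65, 2.59, 2.49 and 3.08 in CKO (-0.99 ± 0.17, adjusted p = 0.000431), and neither gene's groups overlapped. Rfc3, with -0.89, 0.46, 0.02 and -0.73 in WT and -1.23, -1.27, -1.12 and -1.97 in CKO, had the widest spread of the group (-1.11 ± 0.31, adjusted p = 0.0134). Without WT stimulated replicate 2 the Rfc3 call was lost.

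In single-strand binding and fragment joining 4 of 5 members fell. Lig1, the ligase that seals Okazaki fragments, read 4.02, 4.07, 3.86 and 4.16 in WT and 3.03, 2.89, 2.69 and 3.07 in CKO (-1.11 ± 0.13, adjusted p = 8.8e-06). Fen1, the nuclease that trims them, read 1.57, 1.99, 1.55 and 1.46 against 1.11, 0.97, 0.85 and 0.70 (-0.74 ± 0.13, adjusted p = 0.000621). Both were lower on every CKO array. The 3 subunits of the single-strand binding protein RPA differed among themselves: Rpa2 (-0.68 ± 0.14) and Rpa3 (-0.85 ± 0.28) fell. Rpa1 read 2.95, 3.19, 3.12 and 3.09 in WT and 3.02, 2.88, 2.54 and 2.75 in CKO, with overlap. The Rpa3 call was lost under 4 of the 11 other settings and when any of 6 of the 8 compared arrays was left out.

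All 5 nucleotide supply genes fell, with a median of -0.97. Rrm1, the large subunit of ribonucleotide reductase, read 2.55, 2.83, 2.70 and 2.62 in WT and 1.77, 1.78, 1.61 and 1.77 in CKO (-0.94 ± 0.17, adjusted p = 0.000556). Dut, the dUTPase, read 4.48, 4.86, 4.88 and 4.62 against 4.08, 3.87, 3.65 and 4.07 (-0.79 ± 0.14, adjusted p = 0.000686). Every CKO array of both genes was below every WT array. Rrm2, the small subunit of the reductase, read -1.47, -1.06, -1.81 and -1.40 in WT and -2.53, -2.53, -3.25 and -2.64 in CKO (-1.30 ± 0.34, adjusted p = 0.00968). Tk1, thymidine kinase, read -0.05, 0.48, -0.18 and -0.14 against -1.09, -1.17, -1.45 and -1.85 (-1.42 ± 0.30, adjusted p = 0.00249), and Tyms, thymidylate synthase, fell by 0.97 ± 0.19. The Rrm2 call was lost after normexp background correction.

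Both genes of chromatin assembly and fork protection fell. Tipin, a partner of Timeless at the fork, read 4.86, 4.90, 4.95 and 4.60 in WT and 3.88, 3.65, 3.41 and 3.81 in CKO (-1.14 ± 0.18, adjusted p = 0.000228). Chaf1a read 0.96, 1.94, 1.78 and 1.58 against 0.32, 0.02, 0.03 and -0.73 (-1.66 ± 0.36, adjusted p = 0.00263). Neither gene's groups overlapped.

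**Figure D3:**
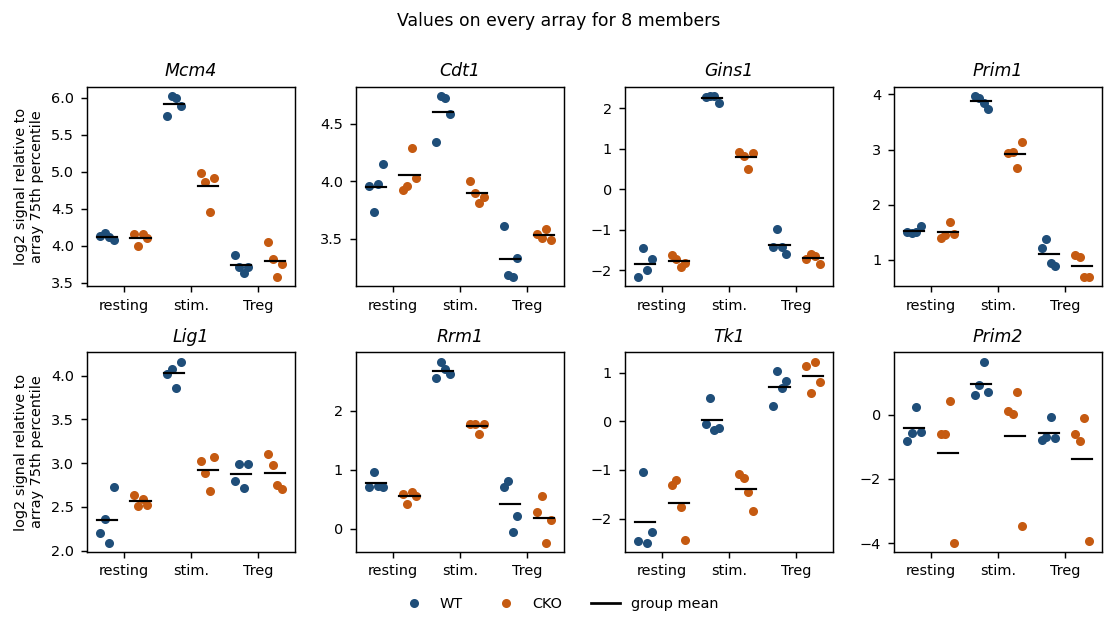
Log2 signal relative to the array's 75th percentile on every array for Mcm4, Cdt1, Gins1, Prim1, Lig1, Rrm1, Tk1 and Prim2 in resting naive, stimulated naive and Treg cells (points, WT blue and CKO orange; black bars, group means of 4 arrays). For every gene but Prim2 the CKO stimulated arrays lie below all WT stimulated arrays, and for Prim2 replicate 4 of each CKO group lies near -4 to -3.5.

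Stimulation still raised most of these genes in CKO cells. There 38 of 48 members rose and 2 fell, where 29.6% of all genes rose and 30.5% fell. The median change was 1.12. Orc1 and Cdc45, which passed the filter only through the stimulated groups, are again among those that rose. The 6 members that rose in WT and did not pass the test as a rise in CKO were Cdt1 (-0.16 ± 0.12), Gins3 (0.10 ± 0.15), Rfc2 (0.11 ± 0.13), Rpa2 (0.25 ± 0.14), Rrm2 (-0.10 ± 0.34) and Tk1 (0.29 ± 0.30). Dbf4 (-0.40 ± 0.15) and Rpa1 (-0.52 ± 0.11) fell, and Orc5 rose by 0.60 ± 0.22. Across the 48 members the 2 sets of changes, measured on different arrays, had a Pearson correlation of 0.914 and a Spearman correlation of 0.885. This describes genes, which are not independent replicates.

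The signed change in CKO was below that in WT for 47 of 48 members, with Orc5 as the exception. The difference between the 2 changes was itself tested, and 12 members passed it, all with a smaller rise in CKO, where 1.30% of all genes passed in that direction and 2.10% in the other. Among helicase loading genes they were Cdt1 (-0.80 ± 0.17), Gmnn (-1.45 ± 0.29), Mcm4 (-1.09 ± 0.17), Mcm5 (-0.88 ± 0.18), Mcm7 (-0.95 ± 0.21), Orc6 (-1.17 ± 0.18) and Orc1. The fitted Orc1 value rests on resting signals that were not well above background, and its probe passed the filter only through the stimulated groups. The other 5 were Gins1 (-1.53 ± 0.21), Prim1 (-0.92 ± 0.19), Lig1 (-1.33 ± 0.19), Rpa2 (-0.93 ± 0.20) and Tk1 (-1.80 ± 0.43). The resting groups of Gins1 and Prim1 overlapped, with -2.17, -1.45, -2.00 and -1.72 in WT and -1.64, -1.72, -1.93 and -1.83 in CKO for Gins1 and 1.50, 1.49, 1.51 and 1.62 and 1.40, 1.46, 1.69 and 1.47 for Prim1. With the normexp background correction 4 members passed this test, and with array weights 26 did. Of the 12 calls, 3 held in all 27 alternatives (Gins1, Gmnn and Orc6). Those of Lig1, Mcm4, Mcm5, Mcm7, Prim1 and Rpa2 were lost with normexp alone, those of Cdt1 and Orc1 also with quantile normalization and with the authors' normalized values. The Tk1 call was lost in 5 alternatives, among them leaving out WT resting replicate 3, WT stimulated replicate 2 or CKO resting replicate 2.

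**Figure D4:**
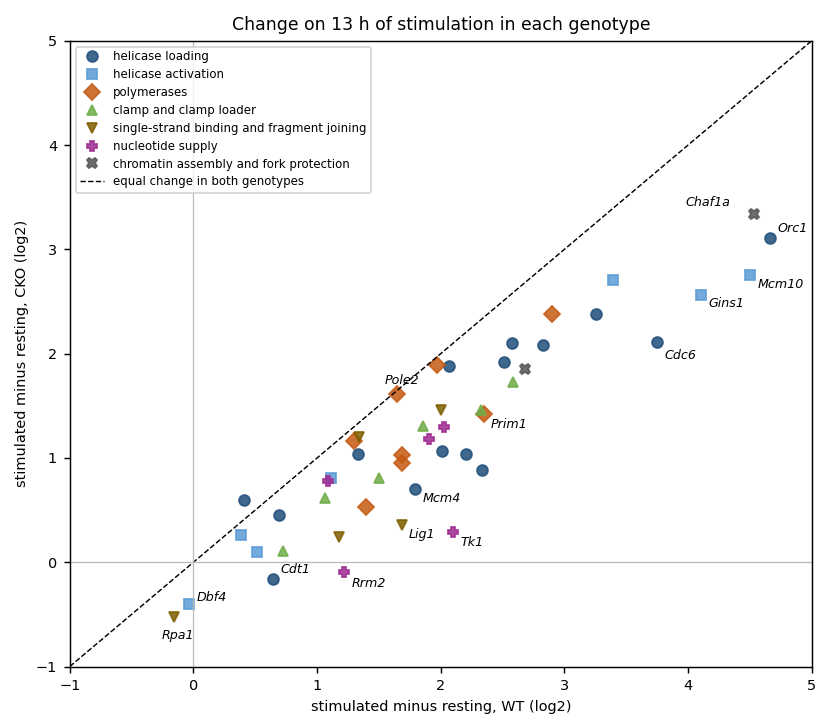
Change on 13 h of stimulation (stimulated minus resting, log2) in WT (x axis) and CKO (y axis) for 48 members, with symbols by role; the dashed line marks an equal change. All members but Orc5 lie below the line, Pole2 and Pold2 lie close to it, and Cdt1 and Rrm2 lie near 0 in CKO.

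The CKO change as a share of the WT change was set out for the 41 members that rose in WT and were well above background on every WT resting array. This left out Orc1 and Cdc45 and kept Cdc6, with a share of 56.3%. Among the 4 CKO resting arrays just 1 gave a Cdc6 signal clear of background, so that share rests on dim readings. The median share was 62.6%, and the shares ran from -24.3% for Cdt1 to 97.6% for Pole2. By role the median share was 65.6% for helicase loading, 81.8% for the polymerases and 62.3% for nucleotide supply, each with a wide range that overlapped the others. Within helicase loading the share ran from -24.3% for Cdt1 and 37.9% for Gmnn to 81.6% for Mcm2 and 91.1% for Orc2. Within the polymerases it was 60.6% for Prim1 and 56.5% for Pola1 and reached 95.9% for Pold2. In nucleotide supply Rrm1 (62.3%), Tyms (63.7%) and Dut (71.6%) were above Tk1 (14%) and Rrm2 (-8.03%). No test was made between roles, and these shares describe how the members spread.

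The levels of activation genes also differed between the stimulated groups. The summed signal of 8 activation markers was 256 to 292 on WT stimulated arrays and 174 to 239 on CKO stimulated arrays, with 1 of 8 higher (Egr2) and 2 lower (Tnfrsf4 and Myc) by the test. Il2ra, which is induced by stimulation, was 3.13 to 3.48 in WT and 3.11 to 3.49 in CKO. The part of activation in the lower replication genes was not tested. Of 7 Treg markers 4 were higher in CKO stimulated cells, with summed signals of 62.8 to 89.7 in WT and 67.8 to 111 in CKO. Summed B cell marker signal was 0.429 to 2.03 on WT stimulated and 1.38 to 5.54 on CKO stimulated arrays, and 5.88 to 22.8 and 14.9 to 50.5 on the resting arrays. Of 9 B cell markers, 5 in WT and 7 in CKO stimulated cells were well above background on 3 or more arrays. In WT, stimulation lowered 9 of 9 B cell markers and 8 of 10 myeloid and dendritic markers. It also lowered 6 of 7 CD8 and NK markers and 5 of 5 erythroid and platelet markers. In CKO the counts were 8, 8, 7 and 5, in the same order. Of all genes 30.3% fell in WT and 30.5% in CKO. Between genotypes, 2 of 7 CD8 and NK markers were higher in CKO at rest and 2 after stimulation. The part of any of these marker lists in the results was not tested.

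At rest few replication genes passed the test between genotypes, although 36 of 48 point estimates were below 0. In CKO resting cells 3 of 48 members were lower and none higher, where 10.8% of all genes were lower and 7.87% higher, and the median difference was -0.23 against 0.01 for all genes. Pole2 read -0.07, -0.33, -0.18 and -0.83 in WT and -1.56, -1.51, -1.84 and -1.55 in CKO. The groups were apart (-1.27 ± 0.23, adjusted p = 0.000948). Pold2 (-0.53 ± 0.17) and Dut (-0.48 ± 0.14) were the other 2. For Pole2 and Pold2 the difference at rest was close to that after stimulation, -1.31 and -0.61, and the change on stimulation differed by -0.04 ± 0.32 and -0.08 ± 0.24 between genotypes. The count at rest was unsteady: no call held after normexp correction, 17 members passed with array weights, and leaving out 1 array gave 1 to 10. It was 10 without WT resting replicate 4, 5 without CKO resting replicate 4, and 1 without WT resting replicate 2 or 3 or CKO resting replicate 2 or 3. With the 75th percentile over detected probes, 1 member was higher and 2 were lower.

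In Treg no replication gene differed between genotypes by limma's adjusted test, where 4.30% of all genes did. The lowest adjusted p was 0.24, and 5 members had an unadjusted p under 0.05 (Chaf1a, Gins1, Gmnn, Mcm2 and Rpa1). The median difference was -0.13. Were the Treg treatment labels right, genotype and stimulation could not be told apart here. For Mcm4 the values were 3.87, 3.71, 3.64 and 3.71 in WT Treg and 4.05, 3.82, 3.58 and 3.75 in CKO Treg. For Gins1 they were -1.44, -0.99, -1.44 and -1.61 and -1.72, -1.60, -1.66 and -1.84. The arrays of both genes overlapped between genotypes, and the median member difference within slides was -0.03, -0.18, -0.18 and -0.09.

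Treg differed from resting naive cells gene by gene. In WT 8 members were higher and 18 lower in Treg, 16.7% and 37.5% of the members, where 19.1% and 29.2% of all genes were, so the shares are near the background. In CKO 7 were higher and 10 lower, where 11.6% and 16.5% of all genes were. With the 75th percentile over detected probes the splits were 11 higher and 7 lower in WT and 8 and 6 in CKO, and those of all genes 4616 and 2946 against 3171 and 4860, and 2589 and 1835 against 1934 and 2750. Individual genes held under every setting run: Tk1 was higher by 2.78 ± 0.30 in WT and 2.62 ± 0.30 in CKO, and Rpa1 was lower (-0.89 and -0.68).

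Tk1 was 0.31, 1.04, 0.68 and 0.82 in WT Treg and 1.13, 0.58, 1.23 and 0.81 in CKO Treg, above every resting array (-2.49 to -1.04 in WT and -2.45 to -1.22 in CKO). Orc1 also passed the test in both genotypes, but it was well above background on no resting array and on 2 of 4 WT and 1 of 4 CKO Treg arrays, so no fold is given. Mcm10 and Pole were also higher in both genotypes (1.51 and 1.33 for Mcm10, 0.71 and 0.65 for Pole). The CKO call was lost in 9 of 19 alternatives for Pole and in 3 for Mcm10. The members higher in WT alone by the test were Chaf1a, Gins1, Lig1 and Rrm2, and those in CKO alone Cdc6, Tyms and Cdc45. The Cdc6 call rests on dim readings, well above background on 1 of 4 CKO resting and 2 of 4 CKO Treg arrays. With normexp correction the Lig1 difference in WT turned to -0.0244. In both CKO groups Cdc45 stayed at background on all arrays, and no fold is given for it.

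The members lower in Treg of both genotypes were Cdt1, Gins3, Mcm2, Orc2, Pold2, Pole2, Prim1, Rfc1 and Rpa1. The largest of these differences in WT was that of Pole2, -1.89, -2.27, -2.05 and -2.36 in Treg against -0.07, -0.33, -0.18 and -0.83 at rest (-1.79 ± 0.23, adjusted p = 4.44e-06). In CKO it was -0.93 ± 0.23, from a lower resting level. With normexp correction the CKO differences of Pole2 and Gins3 turned to 0.267 and 0.0175. In CKO the calls of Prim1, Rfc1 and Rpa1 among these 9 held in all 19 alternatives, and in WT those of Cdt1, Orc2, Pold2 and Rpa1. No member passed the test of a difference between these Treg effects, with a lowest adjusted p of 0.274 and 1 unadjusted p under 0.05 (Pole2), where 0.391% of all genes passed. Counts with only the compared arrays in the fit were 15 in place of 26 in WT and 11 in place of 17 in CKO. In CKO they were 8, 10 and 11 without CKO resting replicates 4, 3 and 1, and 10 without CKO Treg replicate 2.

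**Figure D5:**
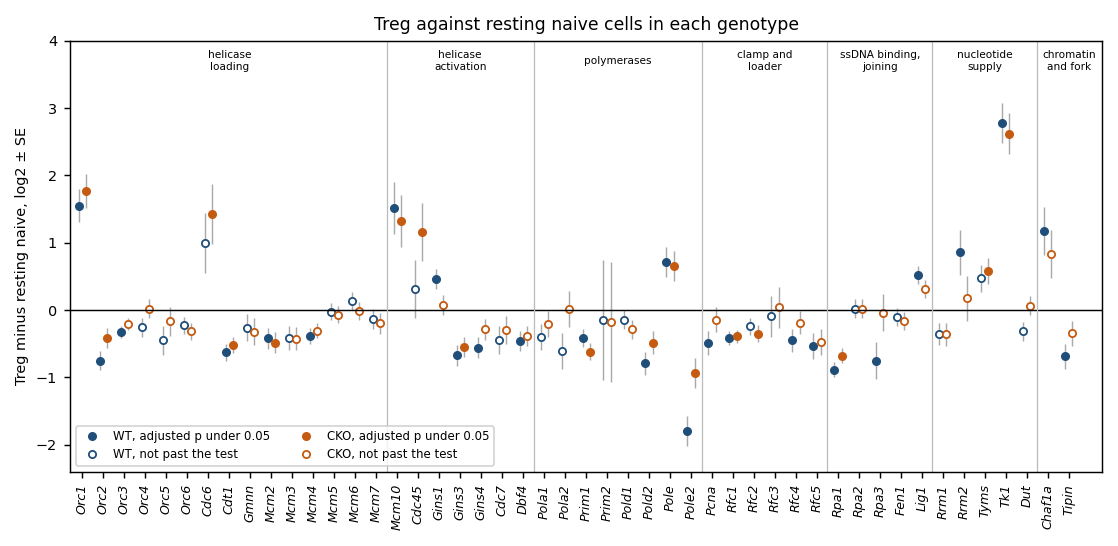
Difference between Treg and resting naive cells (log2 ± SE, n = 4 arrays per group) for 48 members grouped by role, in WT (blue) and CKO (orange); filled points have an adjusted p under 0.05. Tk1, Orc1, Mcm10 and Pole are filled and above 0 in both genotypes, and Pole2 is the lowest member in WT at -1.79.

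Other genes of replication, outside the 49, were also mostly lower in CKO than in WT after stimulation. Of 33 tested, 21 were lower in CKO stimulated cells and none higher, with a median of -0.54, where 12.3% of all genes were lower. Those with the lowest p-values were Topbp1 (-0.81 ± 0.11), a scaffold of helicase activation, Slbp (-0.77 ± 0.12), which binds histone mRNA, Asf1b (-1.15 ± 0.19), a histone chaperone, and Dscc1 (-1.56 ± 0.26), part of an alternative clamp loader. In WT cells 27 of the 33 rose on stimulation and 1 fell, where 31.6% of all genes rose. The test of the difference in change was passed by 7, all lower in CKO, where 1.30% of all genes passed in that direction.

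A wider list of nucleotide synthesis genes included enzymes of purine and pyrimidine synthesis. Of 30 tested, 16 were lower in CKO stimulated cells and none higher (median -0.43), and 10 were already lower at rest (median -0.41), where 12.3% and 10.8% of all genes were lower. Ppat and Paics, enzymes of purine synthesis, were lower at rest (-0.78 ± 0.15 and -0.67 ± 0.15) and after stimulation (-0.76 ± 0.15 and -0.75 ± 0.15). Their changes on stimulation differed by 0.01 ± 0.21 and -0.08 ± 0.21 between genotypes. Dctd, dCMP deaminase, was lower in CKO than in WT after stimulation (-0.67 ± 0.15).

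Among 28 regulators of E2F activity and S phase entry 15 were lower and 1 higher in CKO stimulated cells (median -0.52), where 12.3% of all genes were lower and 11.7% higher. Ccne1, the cyclin that activates Cdk2 ahead of S phase, was lower (-1.70 ± 0.20), and its rise on stimulation was smaller in CKO (-1.34 ± 0.29, adjusted p = 0.0105). E2f3, an activating E2F, was lower (-0.86 ± 0.12), as was Cdc25a, the phosphatase that activates Cdk2 (-0.77 ± 0.16). Rbl2, the pocket protein p130 that represses E2F targets in resting cells, was the 1 higher gene (0.93 ± 0.18, adjusted p = 0.000979). Its change on stimulation was -1.89 in WT and -1.29 in CKO.

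Members with an E2F core in the window shown earlier were set beside those without one. The median CKO difference after stimulation was -0.94 for the 25 with a core and -0.79 for the 15 without, and the median WT rise was 1.69 and 1.97. Prim1, Rrm1 and Mcm6, with cores, differed by -0.95, -0.94 and -0.71, and Pcna, without one in its window, by -1.01.

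Several members had more than 1 probe. For the 15 members with more than 1 kept probe, 16 of the 22 other probes had the same sign as the one used in CKO against WT stimulated cells and 6 the opposite. The opposite ones were 2 of the other 4 probes of Orc3 (0.57 and 0.58, against -0.47), 2 of the other 3 of Orc4 (0.06 and 0.25, against -0.60), and 1 each of Pola2 (0.79) and Prim2 (0.31). The calls for Orc3 and Orc4 are therefore uncertain, and both were lost when the probes were averaged. A second, dim Mcm4 probe, above background on 6 arrays, changed by -1.24 on WT stimulation, opposite to the bright one.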

How the data were processed

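The arrays were labelled with Cy3 by the Low Input QuickAmp protocol and read with Agilent Feature Extraction, version 9.5 per the submitters' processing notes. The deposited intensity values used were the processed signals, background-subtracted and detrended within each array per the file headers. The authors also deposited normalized intensity values on a linear scale, whose method is not given in the sources used here. These served as an alternative. They had the same distribution on all 24 arrays within 0.1%, as quantile-normalized values do. This alternative and quantile normalization are therefore not independent of each other.

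From these, log2 of the processed signal minus each array's 75th percentile was computed after leaving out control spots and outlier spots (0.154%). Probes well above background on 3 of 4 arrays of at least 1 group were kept (25198 of 41174), and the brightest kept probe stood for a gene. A single limma 3.58.1 model (R 4.3.3) over 24 arrays gave 9 contrasts, two-sided, with Benjamini-Hochberg adjustment over 16643 genes at 0.05. The code was tested on simulated data. The array count limits the precision. The members and gene lists were chosen with earlier results of these data known. Values on every array are given, for stimulated cells, for the 2 members of each role with the lowest p in CKO against WT stimulated and the member with the highest, and up to 4 genes of each other list with the lowest adjusted p there are named. One result that this rule would name is not reported here. Cdt1 and Tk1 and the array values in other cell states were chosen after their values were seen. Alternatives were quantile normalization, normexp correction, the deposited normalized values, another percentile, no probe filter, the mean of probes, compared arrays only, array weights, the replicate number or slide as a block, age, and each array left out.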

Additional observations from a re-analysis of the deposited data

Results flagged for a closer look

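Among the genes that the p-value rule above named, some groups of 4 held 1 array far from the other 3. This was measured as its gap to the nearest array over the group's range and set against Dixon's critical value. Of 120 such groups 14 exceeded it, and chance gives about 1 in 20. Prim2 did so in CKO stimulated cells (replicate 4, 0.8366) and WT Treg (replicate 3, 0.8647). Orc5 did so in WT resting (replicate 4, 0.8531), CKO resting (replicate 4, 0.9259) and CKO Treg cells (replicate 3, 0.8455). Rrm1 did so in WT resting (replicate 2, 0.9111) and CKO stimulated cells (replicate 3, 0.9192), and Rrm2 in CKO stimulated cells (replicate 3, 0.8384). The other values were 0.8703 for Rfc1 and 0.8298 for Fen1 in WT Treg (replicate 1 of each), 0.8324 for Rfc3 in CKO stimulated cells (replicate 4), 0.8997 for Gins1 in WT stimulated cells (replicate 4), and, in CKO resting cells, 0.9083 for Cdc7 (replicate 1) and 0.8474 for Pole2 (replicate 3).

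The change on stimulation differed between genotypes, by limma's test of the difference itself, for 5 of the genes that the p-value rule above named. Cdt1 and Tk1, chosen outside that rule, also passed this test and are given earlier. The log2 difference was -1.5343 ± 0.21 (SE) for Gins1 (adjusted p = 0.0002066), -1.4506 ± 0.29 for Gmnn (0.005776), -1.3279 ± 0.19 for Lig1 (0.0003046), -1.0933 ± 0.17 for Mcm4 (0.0005988) and -0.9239 ± 0.19 for Prim1 (0.006848). In each case the rise was smaller in CKO cells. The calls of Gins1 and Gmnn held in all 27 alternatives, and those of Lig1, Mcm4 and Prim1 were lost with normexp correction.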

How the results depend on the processing

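In stimulated cells the count of members lower in CKO was 36 to 46 under the other settings, against 43. The 3 calls at rest became 0 with normexp correction, 1 without the probe filter and 17 with array weights. The Treg count against resting cells became 15 in WT and 11 in CKO with only the compared arrays, and 27 in CKO with normexp. The genotype by stimulation count of 12 became 4 with normexp, 26 with array weights and 19 with the replicate block, and the genotype by cell type count of 0 became 1 with array weights. Leaving out 1 array gave 1 to 10 calls at rest, 39 to 44 after stimulation, 0 to 0 in Treg, 43 to 44 and 38 to 40 for stimulation in WT and CKO, 19 to 31 and 8 to 18 for Treg against resting cells, 11 to 15 for genotype by stimulation and 0 to 0 for genotype by cell type. Signs turned with normexp for Treg against resting cells: Lig1 to -0.0244, Pola2 to 0.6525 and Rfc3 to 0.6692 in WT, and Gins3 to 0.0175 and Pole2 to 0.267 in CKO. With the mean of kept probes Orc3 turned to 0.3726 (CKO against WT at rest) and 0.0845 (stimulated), Mcm4 to -0.9185 (stimulation in CKO), and, for Treg against resting cells in WT, Dbf4 to 0.2202, Mcm4 to 0.1651, Orc3 to 0.3988 and Orc4 to 0.5978. The cause was not tested. The median of all genes on WT stimulation moved from -0.03 to -0.28 with the percentile over detected probes. With the replicate block the counts were 4 at rest, 44 after stimulation, 0 in Treg, 44 and 40 for stimulation, and 30 and 22 for Treg against resting cells. The correlation of same-numbered WT and CKO deviations ran from -0.214 to 0.17 at rest, -0.309 to 0.413 after stimulation and 0.082 to 0.456 in Treg. For same-numbered stimulated and resting arrays of 1 genotype it ran from -0.165 to 0.544 in WT and 0.092 to 0.377 in CKO, with 6 of these 8 above 0.1. Not every pair exceeded 0.1 in any comparison, so the numbers were not taken as pairs. Low signal limits Orc1, at background on all resting arrays, and Cdc45, well above it on 2 of 4 WT and 0 of 4 CKO resting arrays. It also limits Cdc6 in CKO, well above background on 1 of 4 resting and 2 of 4 Treg arrays.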
